A study of Homo sapiens with 2 samples.

Results

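SR proteins and heterogeneous nuclear ribonucleoproteins (hnRNPs) are RNA-binding proteins that decide which exons an mRNA keeps. Their transcripts were read here as all probe sets annotated to genes whose symbols are SRSF followed by a number or begin with HNRNP. That rule found 131 of the 54613 human probe sets on the array. Of these, 117 were annotated to 1 gene and covered 31 genes, 10 SRSF and 21 HNRNP. The other 14 probe sets named several genes and are described apart, since their signal cannot be given to 1 gene.

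The study compared 1 array of K562 cells overexpressing PML4 with 1 array of K562 cells carrying the control vector pMSCV. K562 is a human leukaemia line that carries the BCR-ABL fusion, and PML4 is an isoform of PML, the protein that builds PML nuclear bodies. Both cultures had received retrovirus and were kept in G418 for 3 weeks before total RNA was taken. The promoter driving PML4, and whether the selected cells were a pool or a clone, were not stated in the labels used here. With 1 array in each group there is no replicate error, so no difference below carries a test, and each is a difference between these arrays.

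SR proteins carry an RNA recognition motif and a tail rich in arginine-serine dipeptides. They bind exonic enhancers and recruit the spliceosome, and kinases of the SRPK and CLK families phosphorylate the tail. HnRNPs often bind silencers and oppose exon inclusion, and many also act in mRNA export, stability and translation. Genes of both families are known to make several mRNA forms, including forms with an unproductive exon that are removed by nonsense-mediated decay and through which the proteins limit their own level. A probe set reads 1 stretch of a transcript, so probe sets of 1 gene need not read the same forms. Which form each probe set reads was not analysed here.

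On the deposited scale, the arrays were closely matched in their controls. The ratio of 3′ to 5′ signal of GAPDH, an integrity control, was 1.53 on the PML4 array and 1.55 on the control array, and that of ACTB was 2.80 and 2.94. The median human probe set was at 64 on the PML4 array and 80.6 on the control array. PML itself was read by 9 measured probe sets, of which 5 were higher on the PML4 array, up to 7.12-fold, and 4 were lower, up to 5.92-fold. Of 8 erythroid K562 markers with a probe set of their own, all 8 were measured, with summed signals of 70010.3 on the PML4 array and 46239 on the control array. Most of that sum was from TFRC, at 31653.7 and 17625.2 on the PML4 and control arrays, and HBE1, at 24540.1 and 18103.9. Of the 8 markers 5 were higher and 3, TAL1, EPOR and ALAS2, were lower on the PML4 array. Of 14 markers of fibroblasts, epithelium, lymphocytes and monocytes, 5 were measured, with sums of 9728.7 and 9695.6 on the PML4 and control arrays, most of it from EPCAM and LYZ. The part of these marker differences in the splicing factor values was not tested.

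A probe set was taken as measured where its signal lay above 72.4, the median of all human probe sets, on at least 1 array. Signals under that floor were raised to it, which makes any difference from such a signal a bound. This left 104 of the 117 probe sets and 30 of the 31 genes. SRSF12, a tissue-restricted family member, lay under the floor in both of its probe sets on both arrays. Each gene was represented by its measured probe set of highest mean log2 signal.

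The promoter windows of 4 genes are shown because their probe sets set the range of the results below. SRSF1 and HNRNPM had the largest opposition between probe sets, SRSF8 was higher in every probe set, and HNRNPD shares its start region with a divergent transcript that is also on the array. The sequences are RefSeq's, build GRCh38.p14, from 250 bases before to 50 bases after the gene's start, written 5′ to 3′ on the gene's strand. Capitals mark the E-box CACGTG and the CCAAT box, which was searched on both strands.
SRSF1 chr17:58007197-58007496 (minus strand): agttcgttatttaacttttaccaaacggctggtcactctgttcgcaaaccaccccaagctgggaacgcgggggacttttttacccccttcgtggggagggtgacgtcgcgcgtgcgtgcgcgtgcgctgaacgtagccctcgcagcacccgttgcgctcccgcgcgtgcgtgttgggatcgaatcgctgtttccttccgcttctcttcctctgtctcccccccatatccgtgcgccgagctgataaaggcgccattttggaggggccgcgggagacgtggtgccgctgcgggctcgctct
HNRNPM chr19:8444725-8445024 (plus strand): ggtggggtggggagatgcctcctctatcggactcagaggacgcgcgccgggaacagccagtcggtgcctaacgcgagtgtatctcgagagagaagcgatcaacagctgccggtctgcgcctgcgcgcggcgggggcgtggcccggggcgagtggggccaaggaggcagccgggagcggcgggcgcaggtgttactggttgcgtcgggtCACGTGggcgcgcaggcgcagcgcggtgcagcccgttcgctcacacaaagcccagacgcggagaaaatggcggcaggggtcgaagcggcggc
SRSF8 chr11:95066627-95066926 (plus strand): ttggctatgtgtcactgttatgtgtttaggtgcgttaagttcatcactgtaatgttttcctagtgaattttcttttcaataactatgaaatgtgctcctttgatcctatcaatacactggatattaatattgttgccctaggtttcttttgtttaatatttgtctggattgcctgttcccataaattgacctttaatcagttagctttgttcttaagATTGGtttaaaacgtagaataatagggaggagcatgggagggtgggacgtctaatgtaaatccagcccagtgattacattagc
HNRNPD chr4:82373942-82374241 (minus strand): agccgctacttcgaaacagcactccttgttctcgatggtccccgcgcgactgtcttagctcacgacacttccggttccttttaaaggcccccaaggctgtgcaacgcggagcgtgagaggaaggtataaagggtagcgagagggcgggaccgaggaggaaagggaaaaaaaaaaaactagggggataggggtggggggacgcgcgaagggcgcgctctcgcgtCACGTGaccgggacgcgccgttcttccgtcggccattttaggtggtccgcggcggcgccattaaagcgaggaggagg

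The windows of HNRNPM and HNRNPD each held 1 CACGTG, that of SRSF8 held 1 CCAAT box on the minus strand, and that of SRSF1 held neither. The motifs did not overlap in these windows. Among 42 windows of the 28 measured genes that matched the RefSeq table, 16.7% held CACGTG and 50% held CCAAT or ATTGG, against 7.26% and 34.6% of all 35116 windows of this length. These are matches of letters and not binding sites. The median GC content was 64.8% in the members' windows and 58.7% in all windows.

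No SR or hnRNP gene differed by 2-fold in its representative probe set. Of 30 measured genes, 0 were at least 2-fold higher and 0 at least 2-fold lower with PML4, while over all 12541 measured genes 1.23% were higher and 3.21% lower by that size. Over all genes that is 154 higher and 402 lower, so 27.7% of calls were higher, a share of 41.1% after quantile normalization, 39.9% after loess centring and 35% after centring on the median gene. At 1.5-fold, 2 members were higher and none lower, against 5.7% and 11.8% of all genes. Both were hnRNP genes. HNRNPUL1, an hnRNP U-like protein with a part in DNA damage signalling, had a signal of 3987.4 on the PML4 array against 2603.9 on the control array, a 1.53-fold difference. HNRNPM, which binds GU-rich RNA, was at 12267.7 on the PML4 array against 8013.6, also 1.53-fold. Probe sets of either gene other than the representative one did not all share that direction, as described below. The counts at 1.5-fold rest on narrow margins. The representative of SRSF6 was 1.497-fold lower, a log2 difference of -0.582. After quantile normalization and loess centring it was at -0.618 and -0.624, past 1.5-fold. Under the same scalings HNRNPUL1 was at 0.563 and 0.570, short of 1.5-fold.

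Small positive differences prevailed among the representative probe sets. Of 30 genes 21 were higher and 9 lower on the PML4 array, which is 70% higher against 44.7% of all genes. The median log2 difference, PML4 minus control, was 0.19 over 9 SRSF genes and 0.11 over 21 HNRNP genes, beside -0.05 over all genes. The 21 include the pseudogene HNRNPA3P1 and HNRNPD-DT, a transcript divergent from HNRNPD. Over the 19 protein-coding HNRNP genes 15 were higher, and the median was also 0.11. SRSF genes ran from -0.58 to 0.50 and HNRNP genes from -0.11 to 0.61. These medians are smaller than the 0.30 by which a pair of probe sets of 1 gene typically differed (the median over 19460 pairs). Averaging all probe sets of a gene moved the SRSF median to -0.01, with 4 of 9 genes higher beside 42.7% of all genes, and leaving out probe sets with the suffixes _x_at and _s_at left 9 of 17 HNRNP genes higher beside 43.5%. HNRNP genes were higher in 16 of 21, 16 of 20 and 17 of 21 cases after centring on the median gene, quantile normalization and loess centring, and SRSF genes in 7, 5 and 5 of 9. The gene that turned higher after loess centring was HNRNPA3P1, at 19 on the PML4 array against 75.4 on the control array. Its difference is a bound from the floor, so that change is not a higher signal. Over all genes 50%, 49.5% and 48.4% were higher under these scalings.

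**Figure D1:**
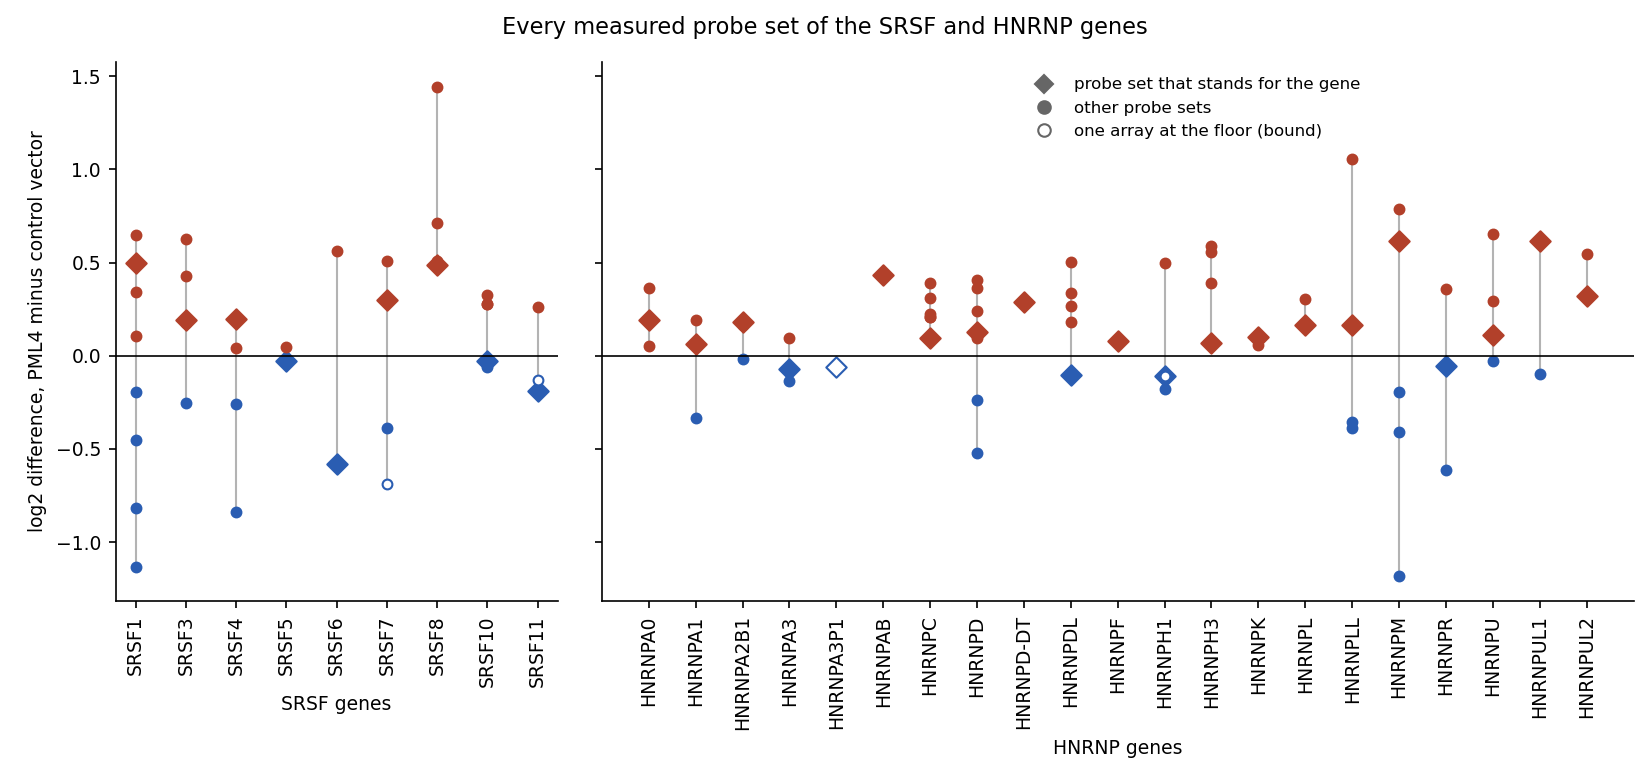
Log2 difference (PML4 minus control vector) of each measured probe set, by gene, with SRSF genes at left and HNRNP genes at right. Diamonds mark the probe set that stands for the gene, circles the others, and open symbols a bound with 1 array at the floor. Most genes span 0, while the 4 probe sets of SRSF8 all lie above 0, between 0.49 and 1.44.

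Differences varied with the signal level of a probe set across the whole array, though not in 1 direction throughout. All probe sets of 1 gene were split into 4 equal groups by mean log2 signal. Their median difference was -0.18 in the lowest group, -0.10 in the next, 0.01 in the third and 0.05 in the highest. Within the highest group the median fell again at the top. In narrower bins it was 0.06 at a mean log2 signal of 12.75, -0.01 at 13.75, and -0.15 at 14.75 and 15.25. SR and hnRNP probe sets lay mostly in the highest group, 67 of 104. There, 50 of the 67 were higher on the PML4 array, with a median of 0.18, beside 56% of all probe sets of that group. In the lowest group 2 of 8 were higher, with a median of -0.12, beside 31.5% of all probe sets there. Of the 8, 206808_at (HNRNPA3P1), 213472_at (HNRNPH1), 236948_x_at (SRSF11) and 211439_at (SRSF7) exceeded 72.4 only in control cells. The rule for a measured probe set let these come out only as lower. Of the rest, 239040_at (HNRNPD) and 1554453_at (HNRNPLL) were higher, and 214918_at and 233605_x_at (HNRNPM) were lower. In the next group 6 of 13 were higher, with a median of -0.19, beside 41.7%, and in the third 10 of 16, with a median of 0.08, beside 50.5%. The part of signal level in the directions reported here was not tested.

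**Figure D2:**
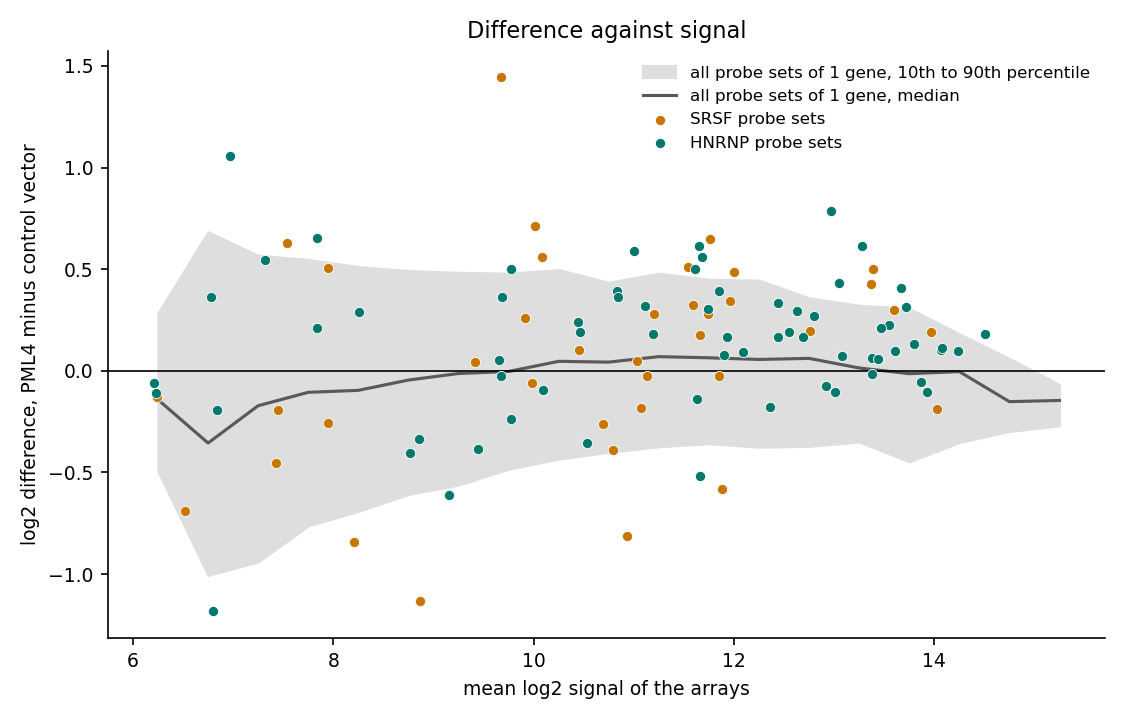
Log2 difference (PML4 minus control vector) against the mean log2 signal of the arrays, with SRSF probe sets in orange, HNRNP probe sets in green, the median of all probe sets of 1 gene as a line and their 10th to 90th percentile as a band. The median line lies below 0 at low signal and again at the very highest signal. SR and hnRNP probe sets cluster at high signal, where 50 of 67 in the highest of 4 signal groups lie above 0.

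Among single probe sets, 4 of the 104 passed 2-fold. They were 2 higher ones, of SRSF8 and HNRNPLL, and 2 lower ones, of SRSF1 and HNRNPM. That of HNRNPM was at 74.1 on the PML4 array, near the floor of 72.4. Over all 23607 measured probe sets of 1 gene, 1.33% were at least 2-fold higher and 3.05% at least 2-fold lower. At any size 68 of the 104 were higher and 36 lower, with 44.9% higher over all probe sets.

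Probe sets of the same gene differed in direction in most SR and hnRNP genes. Of 26 genes with at least 2 measured probe sets, 19 had some above and some below no difference, 8 of 9 SRSF genes and 11 of 17 HNRNP genes. That is 73.1%, against 48.5% of all 6143 genes with at least 2 measured probe sets. The other 7 members had all probe sets higher, and no member had all of them lower, whereas over all genes 22% were higher throughout and 29.5% lower throughout. Many of these oppositions were between values near 0. Counting only genes with a probe set at least 1.2-fold higher and another at least 1.2-fold lower left 7 members, 26.9%, against 13.4% of all genes. At 1.5-fold in each direction 2 members remained, SRSF1 and HNRNPM, 7.69% against 1.73%. They have 8 and 5 measured probe sets, and this share was not matched for the number of probe sets. HNRNPM was included through 233605_x_at alone on the lower side, at 74.1 on the PML4 array, near the floor of 72.4. When the suffixes _x_at and _s_at were left out, 3 of 18 members had 1.2-fold differences in both directions, HNRNPD, HNRNPLL and SRSF7, and the share of all genes was then 12.5%. At any size it was 11 of the 18, beside 46.4% of all genes.

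The share of opposed genes grew with the number of probe sets per gene over the whole array, so members were also set beside genes with as many probe sets. Of 6 members with 2 probe sets 3 were opposed at any size, against 35.5% of all such genes, and of 5 with 3 probe sets 4 were, against 56.7%. Of 8 members with 4 probe sets 6 were opposed, against 66.9%, and of 7 with 5 or more 6 were, against 80.1%. At 1.2-fold in both directions the counts were 1 of 6, 1 of 5, 2 of 8 and 3 of 7, beside 6.77%, 14%, 24.4% and 39% of all genes. With 4 or more probe sets the members' shares thus lay near the background.

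**Figure D3:**
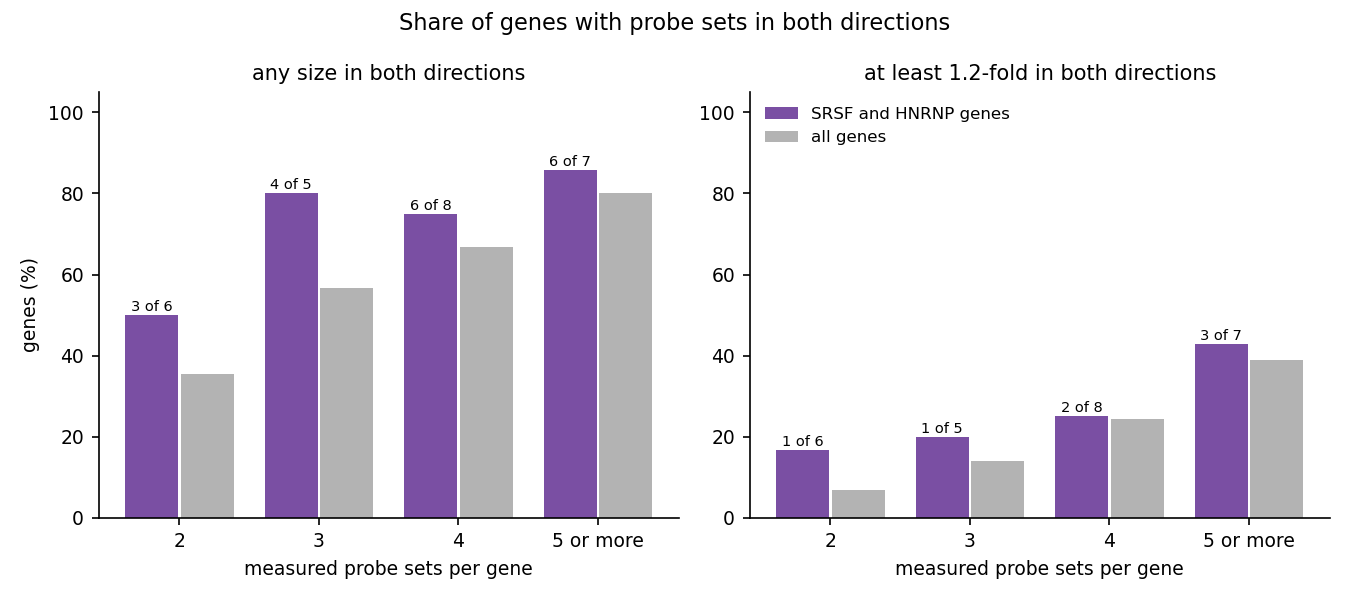
Share of genes (percent) with measured probe sets in both directions, by number of probe sets per gene, for SRSF and HNRNP genes (purple, counts above the bars) and all genes (grey), at any size on the left and at 1.2-fold or more on the right. With 5 or more probe sets 6 of 7 members were opposed at any size, beside 80.1% of all genes.

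Pair by pair, 78 of the 173 pairs of probe sets within a member gene pointed in opposite directions, 45.1% against 38.2% of all pairs. By at least 1.2-fold each way it was 23 pairs, 13.3% against 7.4%. Pairs of 1 gene share probe sets and are not independent. A gene with many probe sets gives many pairs. SRSF1, with 8 probe sets, gave the most pairs of any member and the most opposed at 1.2-fold. The shares of pairs were not matched for the number of probe sets. The median distance between a pair's log2 differences was 0.32 in members and 0.30 over all genes.

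SRSF1, the founding SR protein and an activator of exon inclusion, had 4 probe sets in each direction. The higher ones were 208863_s_at, with a signal of 4334.8 on the PML4 array against 2769.2 on the control array, and 211784_s_at, at 12747.1 against 9023.3. Also higher were 201742_x_at, at 4480.5 against 3535.8, and 227164_at, at 1454.6 against 1353. The representative one, 211784_s_at, was 1.41-fold higher. In contrast, 229246_at was at 314.9 on the PML4 array against 690.6, 2.19-fold lower, and 226419_s_at was at 1477.2 against 2597.9, 1.76-fold lower. The remaining lower ones were 239384_at, at 147 against 201.3, and 201741_x_at, at 163.1 against 186.3. All 8 lay above the floor on both arrays, and their log2 differences spanned 1.78.

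SRSF6, an SR protein with a pair of RNA recognition motifs, was read by 2 probe sets of near equal and opposite difference. Its representative, 208804_s_at, was at 3081.2 on the PML4 array against 4613.3 on the control array, a log2 difference of -0.58. The other, 206108_s_at, was at 1314.5 against 890.3, a log2 difference of 0.56. Their mean log2 difference was -0.01. Among members above the floor on both arrays, SRSF6 was the only one whose representative was lower by more than 1.2-fold.

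SRSF7, an SR protein with a zinc knuckle that also serves in mRNA export, was split 2 against 2. The probe set 213649_at was at 3559.4 on the PML4 array against 2501.6 on the control array, 1.42-fold higher, and the representative 214141_x_at at 13724.8 against 11142.9, 1.23-fold higher. On the other side, 201129_at was at 1555.1 against 2036.8, 1.31-fold lower. The fourth, 211439_at, was under the floor on the PML4 array, at 56.3 against 116.6, and was at least 1.61-fold lower.

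SRSF8 was higher in all 4 of its probe sets, the only one of the 9 measured SRSF genes of which that holds. It is an intronless relative of SRSF2. The probe set 228760_at was at 1343 on the PML4 array against 493.9 on the control array, 2.72-fold higher, the largest difference of any member probe set. The probe set 213152_s_at was at 1320.4 against 806.8, and 238929_at at 294.2 against 206.9. The representative 214789_x_at was at 4861.1 against 3469, 1.40-fold higher. The gene's log2 difference ran from 0.44 to 1.44 over the alternatives of processing, always above 0.

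SRSF3, the smallest SR protein, had 4 of 5 probe sets higher. Its representative, 208672_s_at, was at 17171 on the PML4 array against 15036.2 on the control array, and 202899_s_at was at 12255.3 against 9112.7, 1.34-fold higher. Its largest difference was in 235324_at, at 230.7 against 149.3, 1.55-fold higher, and 208673_s_at was at 3448.9 against 3052.4. The exception, 232392_at, was at 225.3 against 268.8. SRSF4, which has a long arginine-serine tail, was split 2 against 2. Its representative 201696_at was at 7398.3 on the PML4 array against 6457.8, while 239511_s_at was at 221.2 against 396.1, 1.79-fold lower, and 242837_at was at 1513.6 against 1813.8. The probe sets 239511_s_at and 239512_at, at 692.2 against 671.8, are annotated to the same GenBank record and differed in direction, though 239512_at by only 1.03-fold.

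The remaining SRSF genes differed little. SRSF5 was at 2219 on the PML4 array against 2260.8 on the control array in its representative probe set and at 2129.4 against 2062.2 in the other, the narrowest span of the SRSF genes, 0.07 on the log2 scale. SRSF10, which represses splicing when dephosphorylated, had 3 of 5 probe sets higher, with log2 differences from -0.06 to 0.33. Its representative was at 3661.5 on the PML4 array against 3730.9 and 225348_at at 991.2 against 1032.3. The higher ones were 213594_x_at, at 3444.4 against 2748.3, 210178_x_at, at 2590.7 against 2134.9, and 204299_at, at 3778.2 against 3114. SRSF11 had 3 of 4 probe sets lower. Its representative was at 15669 on the PML4 array against 17872.5, 1.14-fold lower, and 213742_at was at 1053.4 against 879.7, a log2 difference of 0.26. Lower as well were 200685_at, at 2025.7 against 2297.4, and 236948_x_at, at 53 against 79.2, under the floor on the PML4 array.

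SRSF2 and SRSF9 were read only by probe sets that name a further gene. The 3 probe sets annotated to SRSF2 and the microRNA gene MIR636 had PML4 and control signals of 17419.6 and 15357.1, 5783.8 and 5586.8, and 9665.5 and 10652.1. The first 2 were higher and the last lower, by no more than 1.13-fold either way. Both probe sets annotated to SRSF9 and GATC were higher, at 12269.9 against 9525 and at 11515.6 against 9508.7. The probe set of HNRNPH2 and its read-through with RPL36A was at 4650.4 on the PML4 array against 3718.4 on the control array. The probe set 216302_at, annotated to 4 HNRNPCL genes, was at 152 against 203.8, 1.34-fold lower. The read-through of HNRNPUL2 and BSCL2 shared 208906_at with BSCL2, at 649.7 against 518.4, and 66053_at with HNRNPUL2, under the floor on both arrays.

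**Figure D4:**
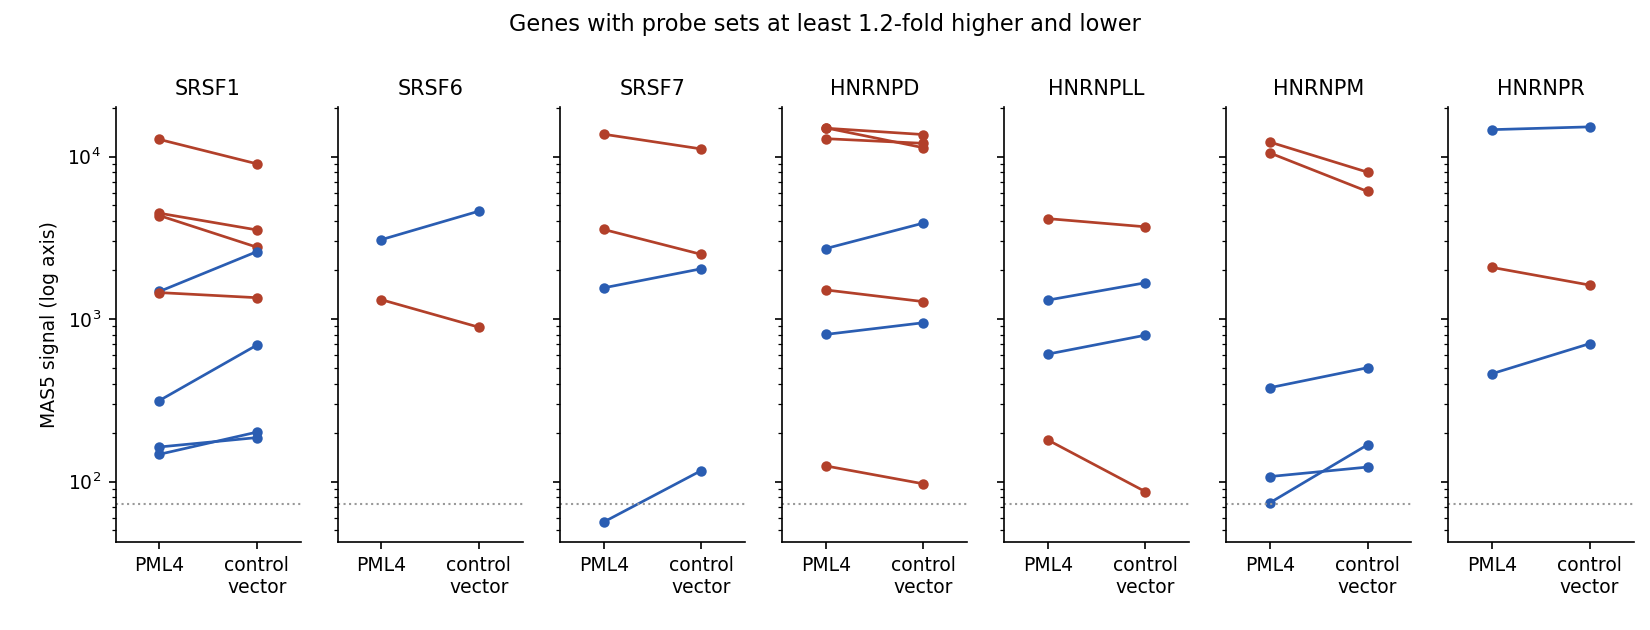
MAS5 signal (log axis) on the PML4 array (left) and the control vector array (right) for each measured probe set of the 7 genes with probe sets at least 1.2-fold higher and lower, with red lines for higher and blue for lower signals with PML4 and the floor of 72.4 dotted. SRSF1 has 4 lines of each colour, and in HNRNPM the 2 upper lines are red and the 3 lower ones blue.

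HNRNPM had the widest span of any member, 1.97 on the log2 scale. Its higher probe sets were 200072_s_at, at 10511.4 on the PML4 array against 6096.8 on the control array, 1.72-fold, and the representative 1555844_s_at described above. The 3 lower ones were 1555843_at, at 378.2 against 501.4, 214918_at, at 107.3 against 122.7, and 233605_x_at, at 74.1 against 168.2, a 2.27-fold difference. On the PML4 array 233605_x_at lay near the floor of 72.4, and the span of 1.97 rests on it. Both 1555844_s_at and 1555843_at are annotated to the same GenBank record, and they lay on opposite sides, at log2 differences of 0.61 and -0.41. In both member genes with such a pair, HNRNPM and SRSF4, the pair was thus opposed, beside 39.2% of 567 such pairs over all genes. These are only 2 pairs, and 239512_at of SRSF4 differed by just 1.03-fold. Over all genes the share was near the 38.2% of all pairs of 1 gene. When the suffixes _x_at and _s_at were left out the gene was represented by 1555843_at and its direction reversed, as it did with the mean of probe sets, to -0.08.

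HNRNPD, known as AUF1 and a regulator of the decay of AU-rich mRNAs, had 5 probe sets higher and 2 lower. The largest differences were in 209330_s_at, at 15015.9 on the PML4 array against 11339.5 on the control array, 1.32-fold higher, and in 213359_at, at 2714.1 against 3891.6, 1.43-fold lower. The representative, 200073_s_at, was at 14942.3 against 13659.8. The rest were 221481_x_at at 12881.8 against 12061.6, 221480_at at 1510.2 against 1280, 239040_at at 124.7 against 96.8, and 229129_at at 803.9 against 948.5. HNRNPD-DT, a transcript that starts 577 bases away on the opposite strand in RefSeq, was at 337.6 on the PML4 array against 276.7, 1.22-fold higher.

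HNRNPLL, a regulator of CD45 splicing in lymphocytes, was split 2 against 2. The representative 225386_s_at was at 4147.6 on the PML4 array against 3694.6 on the control array, and 1554453_at was at 180 against 86.6, 2.08-fold higher. On the lower side were 225385_s_at, at 1307.8 against 1671.5, 1.28-fold, and 236104_at, at 608.5 against 795.2, 1.31-fold. HNRNPR, a relative of SYNCRIP, had 208765_s_at at 2077.6 on the PML4 array against 1618.1, 1.28-fold higher, and 232004_at at 461.1 against 705.4, 1.53-fold lower. Its representative, 208766_s_at, was at 14641.2 against 15229.4, a 1.04-fold difference.

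The 5 HNRNP genes of highest mean log2 signal in their representative probe sets differed by no more than 1.13-fold there. HNRNPA2B1, a binder of nuclear and exported RNA, was at 24796.7 on the PML4 array against 21870.3 on the control array. HNRNPC, which binds uridine tracts and blocks cryptic exons, was at 20007.9 against 18723. All 6 of its measured probe sets were higher, by 1.07-fold to 1.31-fold. HNRNPU, a nuclear scaffold protein, was at 17972.7 on the PML4 array against 16648.4, and HNRNPK, a KH-domain protein, at 17763.4 against 16537.9. HNRNPH1, which binds runs of guanine, was the lower one, at 15034.3 against 16182.9, with 3 of 4 probe sets lower and 213470_s_at 1.41-fold higher. Of the lower ones 213472_at, at 34.8 against 78.2, was under the floor on the PML4 array and gives only a bound.

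Agreement in direction was complete in 7 members, HNRNPA0, HNRNPC, HNRNPH3, HNRNPK, HNRNPL, HNRNPUL2 and SRSF8, and always upward. HNRNPH3, a relative of HNRNPH1, had 4 of 4 probe sets higher, with log2 differences from 0.07 to 0.59. HNRNPL, which binds CA repeats, was at 6985.6 on the PML4 array against 6234 on the control array and at 3816.2 against 3091.8. These 7 stayed undivided under quantile normalization, loess centring and centring on the median gene, whereas HNRNPC was divided with the floor at the 25th percentile. HNRNPA2B1 was undivided as well after quantile normalization, and HNRNPA2B1, HNRNPU and SRSF5 after centring on the median gene. Among genes with 1 measured probe set, HNRNPAB was at 9882.8 against 7317.4, 0.43 higher on the log2 scale, and HNRNPF at 3922.1 against 3712.8.

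HNRNPA1, the classical silencer-binding hnRNP, has many processed pseudogenes, and some of its probe sets are shared with them. The 3 probe sets of HNRNPA1 alone were at log2 differences of 0.19, 0.06 and -0.33. The 2 probe sets shared with its pseudogenes were lower, at 37385.2 on the PML4 array against 41554.8 on the control array and at 33156.8 against 38768.7. Most probe sets of such high signal were lower. Over all probe sets of 1 gene around a mean log2 signal of 15.25, the median log2 difference was -0.15. Their 10th to 90th percentiles ran from -0.27 to -0.07. The part of signal level in the HNRNPA1 values was not tested. With the shared probe sets included, the representative difference of HNRNPA1 was -0.15 and its direction reversed. HNRNPA3 had 1 of 3 probe sets of its own higher, and of 3 shared with the pseudogene HNRNPA3P1 2 were higher. Its own log2 differences ran from -0.14 to 0.09. In HNRNPA3P1 the single probe set was at 19 against 75.4, just above the floor on the control array alone, so its difference with the floor, at least 1.04-fold lower, is a bound. A pseudocount of 32 gave -1.07 on the log2 scale, and a lower floor, the 25th percentile, gave -1.99.

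The other opposed members were HNRNPDL, HNRNPU, HNRNPUL1 and HNRNPA2B1, each with 1 probe set lower and the rest higher. The lower one was the representative in HNRNPDL, at 7956.2 on the PML4 array against 8545.5 on the control array, while its 4 others were 1.13-fold to 1.42-fold higher. In HNRNPUL1 the lower probe set, 209675_s_at, was at 1058.1 against 1130.5.

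Kinds of probe set did not divide the members cleanly. Within genes, the probe set of highest mean signal lay above the mean of the others in 11 of 26 members, 42.3%, against 52.2% of all genes. Probe sets annotated to a RefSeq mRNA lay above the others of their gene in 8 of 15 members, with a median distance of 0.11 on the log2 scale, against 53.8% of all genes and a median of 0.03. Probe sets with a suffix before _at lay above plain ones in 11 of 19 members, against 54.3% of all genes.

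The SR-related proteins and SR protein kinases, a list of 27 genes including CLK1 to CLK4, SRPK1 to SRPK3 and TRA2B, had 25 measured. Of these 22 were higher and 3 lower, none by 2-fold, with a median log2 difference of 0.24 and a range from -0.23 to 0.50. That median was 0.11 with the mean of probe sets and 0.08 when the suffixes _x_at and _s_at were left out. TRA2B, an SR-like splicing activator, was at 15532.6 on the PML4 array against 10947.4 on the control array, 1.42-fold, with 4 of 4 probe sets higher. SON, a speckle scaffold, was at 11627.9 against 10675, with 5 of 5 probe sets higher. The share of higher genes, 88%, stood beside 44.7% of all genes and 70% of SR and hnRNP genes. Opposition at 1.2-fold occurred in 4 of 16 genes of that list with at least 2 probe sets, beside 13.4% of all such genes. These shares were not matched for the number of probe sets.

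Of 48 measured core spliceosome genes 34 were higher and 14 lower, with a median log2 difference of 0.10 and none at 2-fold. SNRPG, an Sm protein, was at 22026.8 on the PML4 array against 17124.3 on the control array, and SNRPD2 at 22262.8 against 21706.4. In that list 0 of 26 genes with at least 2 probe sets were opposed at 1.2-fold, beside 13.4% of all such genes. At any size 10 of the 26 were opposed, beside 48.5%. Other splicing regulators were 19 higher and 16 lower of 35, with a median of 0.03, or -0.10 with the mean of probe sets. Of 29 with at least 2 probe sets, 7 were opposed at 1.2-fold. The opposed shares of both lists were not matched for the number of probe sets. NONO was at 22420.2 on the PML4 array against 23439.2 and YBX1 at 22661.1 against 20661.3.

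Of 13 measured genes listed for nonsense-mediated decay, which hold decay factors, junction proteins and known target transcripts, 7 were higher and 6 lower, with a median of 0.09, which was -0.01 with the mean of probe sets and -0.02 when the suffixes _x_at and _s_at were left out. There were 2 at least 2-fold lower and none higher, beside 3.21% and 1.23% of all genes. That number was 1 or 0 in 8 of 10 alternatives. MAGOHB, an exon junction protein, was at 189.5 on the PML4 array against 398.4 on the control array, 2.10-fold lower, and both of its probe sets were lower. GAS5, a noncoding host gene whose spliced RNA is degraded by this pathway, was at 61.3 against 177.6, at least 2.45-fold lower. ATF4 and ZFAS1, likewise targets and not factors, were at 12011.1 against 18865.1 and at 12029.3 against 17231.7. All measured target transcripts of the list, GAS5, ATF4, ZFAS1 and GADD45B, were lower, GADD45B with a log2 difference of -0.82. Among the decay factors and junction proteins only MAGOHB and SMG8 were lower, SMG8 at -0.02, so the pooled counts and median mix these kinds.

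**Figure D5:**
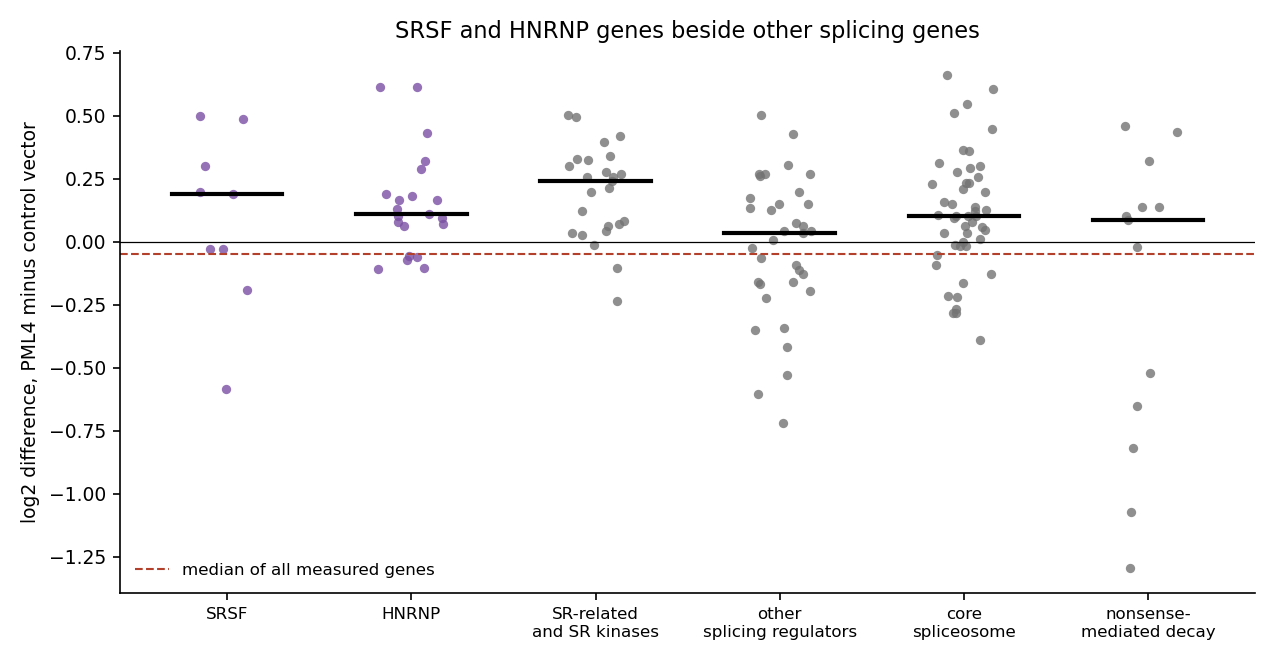
Log2 difference (PML4 minus control vector) of each measured gene in the SRSF and HNRNP families (purple) and the 4 other lists (grey), with the list's median as a bar and the median of all measured genes, -0.05, as a dashed line. The bars of the SRSF, HNRNP and SR-related lists lie at 0.19, 0.11 and 0.24.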

How the data were processed

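Each Affymetrix array received biotin-labelled cRNA prepared from total RNA (6 µg), per the labels. The deposited intensities are linear signals, 1 per probe set, summarised by the authors with MAS5 per the submitters' processing notes. No source used here states its version or settings. Trimmed of 2% of probe sets at either end, the mean signal was 500.01 on the PML4 array and 499.9 on the control array. With 1 array a group, precision cannot be estimated.

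Probe sets were named from GEO's annotation of the array, matched to RefSeq by Entrez identifier (0 symbols changed). The annotation names no genome build, so only RefSeq promoter windows carry coordinates. Log2 differences (PML4 minus control vector) were computed from the deposited signals with Python 3.11.15, numpy 2.4.6 and pandas 2.3.3, after raising signals under the floor to it. A call was a 2-fold difference. The steps were tested on simulated data with planted differences, little noise and no shift with signal level. That checks the code and not the precision of the calls on these arrays. Described in full are every SRSF gene, members called or opposed at 1.2-fold, and the 5 HNRNP genes of highest mean signal, and in other lists called genes and the 2 of highest mean signal. Further genes were chosen after their values were seen. Members and lists were chosen with earlier results of these data known. Alternatives were 2 other floors, a pseudocount of 32, 3 scalings, the mean over probe sets, 3 other selections of probe sets, and other sizes of a call.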

Additional observations from a re-analysis of the deposited data

How the results depend on the processing

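No paired analysis was possible because each group holds 1 array, and for the same reason no replicate could be left out. A median was taken as moved when it changed by 0.30 or more on the log2 scale, and a count when it changed by over 1.5 times. By that measure 177 of the recomputed summary values kept their place and 16 moved, and of the values of single genes 270 kept theirs and 20 moved. The median log2 difference of every list was itself under 0.30, so it could cross 0 and still keep its place by that measure. Those of the SRSF genes, the other splicing regulators and the nonsense-mediated decay list did so. These counts therefore do not show that directions held. The direction of 15 of the 30 genes changed under at least 1 alternative. It changed in 9 genes with the mean of probe sets, among them SRSF1 to -0.13, SRSF4 to -0.22, SRSF7 to -0.07 and HNRNPDL to 0.24. It changed in 7 when the suffixes _x_at and _s_at were left out, among them SRSF3 to -0.25, HNRNPD to -0.52 and HNRNPLL to -0.39. Including probe sets of several genes changed it in 3, among them HNRNPA3 to 0.29, centring on the median gene in 2 and loess centring in 1. The number of members at least 2-fold higher was 0 and became 1 when the suffixes _x_at and _s_at were left out, where SRSF8 was represented by another probe set, and 2 at 1.5-fold. The number at least 2-fold lower was 0 and became 1 with a lower floor, the 25th percentile, and 1 with a pseudocount of 32, in each case the pseudogene HNRNPA3P1. Members opposed at any size numbered 19 of 26. They numbered 16 of 26 after centring on the median gene, beside 48.2% of all genes, and 18 of 26 after quantile normalization, beside 49.3%. Without the _x_at and _s_at probe sets, where fewer probe sets were read, they numbered 11 of 18. Members opposed at 1.2-fold numbered 7, against 3 without those probe sets, 2 at 1.5-fold and 12 at 1.1-fold in each direction. The 2 lower calls of the nonsense-mediated decay list became 1 with the pseudocount, quantile normalization, loess centring, the mean of probe sets, without _x_at and _s_at probe sets and where each array had to exceed the floor. They became 0 with a higher floor, the 75th percentile, and 0 with probe sets of several genes included. The HNRNP median stayed between 0.11 and 0.16 and the SRSF median between -0.01 and 0.24. Signals under the floor of 72.4 give only bounds, and precision by signal level was not measured.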
